A study of Mus musculus with 6 samples.

Results

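The genes examined here encode the ligand, receptors, receptor substrates and binding proteins of insulin and insulin-like growth factor (IGF) signaling in *Kiss1* cells of the medial amygdala (MeA). They are 9 genes chosen by symbol, *Irs1*, *Irs2*, *Insr*, *Igf1*, *Igf1r*, *Igfbp2*, *Igfbp4*, *Igfbp5* and *Igfbp6*, and all 9 were among the 13886 genes of the table of log2 CPM (the log2 of a gene's count in proportion to its library's size), so that 0 were missing. RNA was isolated with the RiboTag method, in which ribosomes carrying a hemagglutinin tag on the protein Rpl22 are precipitated from cells that have expressed Cre recombinase under control of *Kiss1*, in female mice of the genotype KissCre+/Rpl22HA+/+. Ovariectomy (OVX) was performed in all females at the age of 8 weeks, after which they received an estradiol (E2) capsule for 4 days, meant to raise Cre, and then spent 7 days without E2. The OVX group had no further capsule, and the E2 group had a second capsule for 5 days. Each group had 3 libraries, and each library came from the pooled MeA micro-punches of 4 mice. Tagging marks every cell that has made Cre, including those in which *Kiss1* later fell. No library of untagged animals or of whole punches was analysed here, so the background of the precipitation was not measured across genes. By RT-PCR, the paper found no *Kiss1* or *Cck* in precipitates of Cre-negative controls, and no *Avp* in any precipitate.

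Insulin and IGF1 bind related receptor tyrosine kinases, the insulin receptor and the IGF1 receptor, which phosphorylate adaptor proteins of the insulin receptor substrate (IRS) family. IRS proteins recruit phosphatidylinositol 3-kinase (PI3K), which activates AKT, and AKT keeps FoxO transcription factors out of the nucleus, while a second branch runs through RAS and ERK. IGF binding proteins are secreted, hold IGFs in the extracellular space, and may restrain or extend their action. In the brain, IRS2 is the substrate most closely tied to control of energy balance and fertility by insulin signaling, and estrogen receptors and the IGF1 receptor are known to act together in neurons.

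*Irs2* was the only one of the 9 genes past the threshold, an adjusted p under 0.05 over all genes, and 0.288% of all genes passed it (40 of 13886). The other 8 were not past it in either direction. The paper, from the same 6 libraries, also listed *Irs2* among the genes raised by E2. By groups that did not overlap, the count was again 1 of 9 (*Irs2*), against 13.7% of all genes. The median difference of the 9 genes (E2 minus OVX, log2 CPM) was 0.02, and that of all genes was 0.00.

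The upstream sequences of *Irs2* and *Irs1* are shown first, because the upstream windows of these close relatives held the same pair of motifs. Only *Irs2* was past the threshold, but its rise was not shown to differ from the change of *Irs1* (exact permutation p of 0.5, below). The windows are the 250 bases before the RefSeq start site on GRCm38.p6, chr8:11008930-11009179 on the minus strand for *Irs2* and chr1:82291440-82291689 on the minus strand for *Irs1*. Capitals mark CACGTG, the E-box letters that bind basic helix-loop-helix factors, and TGTTTTG, which holds the core of the insulin response sequence that FoxO factors bind.
Irs2: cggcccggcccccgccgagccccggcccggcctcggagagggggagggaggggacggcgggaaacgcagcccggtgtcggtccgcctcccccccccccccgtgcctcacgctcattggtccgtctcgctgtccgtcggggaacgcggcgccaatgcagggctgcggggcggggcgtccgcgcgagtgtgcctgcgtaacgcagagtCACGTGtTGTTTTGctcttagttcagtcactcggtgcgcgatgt
Irs1: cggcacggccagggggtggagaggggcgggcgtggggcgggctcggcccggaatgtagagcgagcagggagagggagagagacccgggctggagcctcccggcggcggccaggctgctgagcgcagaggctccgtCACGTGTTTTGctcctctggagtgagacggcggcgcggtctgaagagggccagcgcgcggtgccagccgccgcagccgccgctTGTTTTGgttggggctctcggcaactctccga
In *Irs2* the E-box began 44 bases before the start site and TGTTTTG 37 bases before it, with 1 base between them. In *Irs1* the E-box began 115 bases before the start site and shared 2 bases with a TGTTTTG that began at 111, and another TGTTTTG began at 32. CACGTG was in 3 of the 9 windows held for 8 of the genes, and TGTTTTG in 2. On either strand, 6.02% of the 32851 windows in the RefSeq table held CACGTG, 5.56% held TGTTTTG and 0.295% held both. The estrogen response half-site AGGTCA was found in the windows of *Igf1* and *Igf1r*, 2 of the 9 windows, and in 14.0% of all windows. The cAMP response element TGACGTCA was in 0 of the 9 windows and in 1.55% of all. The motifs were picked after these sequences were read, and a match is a description of letters in a window. The *Irs2* start site of RefSeq lies 471 bases from that of the GENCODE model used below, and *Insr* had no window.

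The 6 libraries had rebuilt, scaled library sizes of 28080000 to 34160000 reads, and correlations between libraries across genes, which are not independent replicates, were 0.977 to 0.989. *Kiss1*, which defines the tagged cells, is listed as a pair of gene models that share 498 exonic bases on the same strand, so that their reads could be split. In OVX libraries the first, ENSMUSG00000115958, stood at 2.29, 1.82 and 1.13 log2 CPM, below the 3.72, 3.80 and 3.45 of the E2 libraries (limma adjusted p = 0.00475). The second, ENSMUSG00000116158, stood at -5.82, -0.65 and 0.10 in OVX and at 2.97, 3.18 and 2.65 in E2 libraries. Its difference of 5.05 (SE 1.09) was not past the threshold (limma adjusted p = 0.0942). The -5.82 is the lowest value of OVX replicate 1, taken as that of a gene without reads. Another model on the same strand, ENSMUSG00000098306 (Gm28040), was not listed. It covers 583 of the 741 exonic bases of ENSMUSG00000115958 and 779 of the 779 of ENSMUSG00000116158. In the GENCODE models used here, ENSMUSG00000115958 is itself named Gm28040, so the levels of both *Kiss1* models are uncertain. All 6 genes of a neuronal marker list were listed, with a summed level of 12.44 to 12.49 in OVX and 12.46 to 12.54 in E2 libraries. Markers of other cells were listed as well. Summed levels were 9.67 to 10.19 for the 6 astrocyte genes, 10.61 to 11.23 for the 6 oligodendrocyte genes, 6.53 to 6.91 for the 6 microglial genes and 8.62 to 10.07 for the 6 choroid plexus genes, on the log2 CPM scale. For 6 genes of forebrain excitatory neurons the sum was 9.78 to 10.15 in OVX and 9.38 to 9.77 in E2 libraries, and for the 4 listed of 6 erythroid genes it was 6.91 to 7.83 and 8.13 to 8.80. In precipitates from pooled tissue, fewer cells of a type, less RNA per cell and the background of the precipitation cannot be told apart.

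*Irs2* (ENSMUSG00000038894, chromosome 8 from 10984681 to 11008458 on GRCm38, minus strand) encodes insulin receptor substrate 2. Its log2 CPM was 6.34, 6.33 and 6.34 in OVX replicates 1, 2 and 3 and 6.89, 6.66 and 6.68 in E2 replicates 1, 2 and 3. Every E2 library was above every OVX library, and the gap between the groups was 0.32. The mean rose from 6.34 ± 0.004 (SD, n = 3) to 6.74 ± 0.12 (SD, n = 3), a difference of 0.40 (SE 0.07, limma adjusted p = 0.0284), which is 1.32-fold with a 95% interval from 1.19 to 1.47. In CPM the group means were 80.9 in OVX and 107 in E2 libraries. The reads behind these values, rebuilt from the log2 CPM, were 2276 to 2756 in OVX and 3312 to 3577 in E2 libraries.

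By p-value *Irs2* ranked 28 of the 13886 genes, and among the 32 genes that rose with E2 its difference ranked 29, where the median was 0.74 and the range 0.30 to 2.04. The spread of *Irs2* between OVX libraries (SD 0.004) was matched or undercut by 11 genes including itself (0.0792%), against a median OVX SD of 0.12. Among the marker lists, the summed erythroid genes were likewise higher in each E2 library than in each OVX library, with 2 of the 4 listed genes past the threshold (*Hba-a1* and *Hba-a2*). All 6 astrocyte genes had a higher mean with E2, with overlapping sums of 9.67 to 9.99 in OVX and 9.93 to 10.19 in E2 libraries and 0 genes past the threshold, and their part in the *Irs2* result was not tested.

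The size of the difference moved little when 1 library was left out, but the call did not always hold: the adjusted p was 0.101 without OVX replicate 1, 0.0562 without OVX replicate 2, 0.0811 without OVX replicate 3 and 0.136 without E2 replicate 1, where the difference was 0.33. It was 0.0469 without E2 replicate 2 and 0.0327 without E2 replicate 3. In a fit with neither a mean-variance trend nor weights the adjusted p was 0.466, and that fit called 0 genes in all, with 1017 at an unadjusted p under 0.05. With voom weights on rebuilt counts, the limma adjusted p of *Irs2* was 0.0300. The gene shares 162 of its 6323 exonic bases with 9530052E02Rik, a transcript of the opposite strand, and the libraries did not mark strand.

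**Figure D1:**
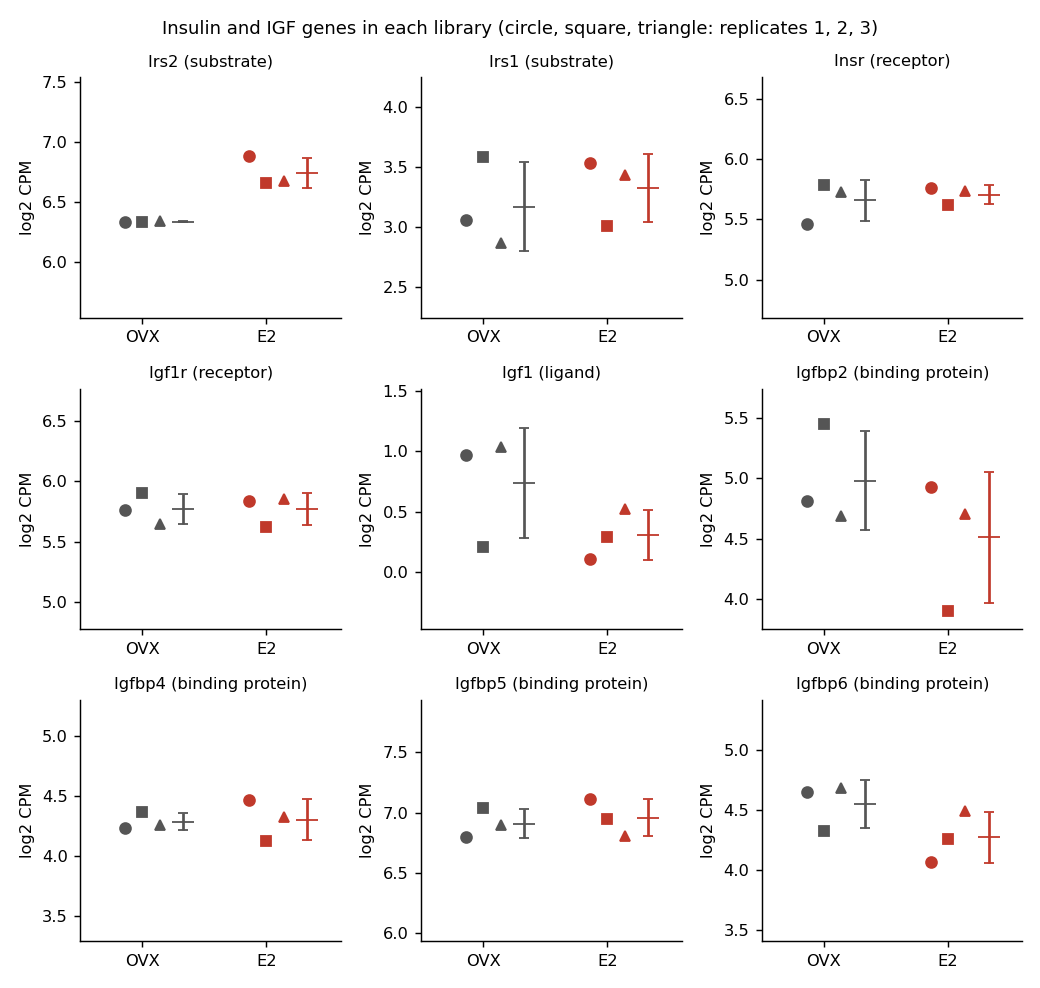
Log2 CPM of each of the 9 genes in the 3 OVX (grey) and 3 E2 (red) libraries, with the mean and SD beside the points. Each panel spans 2 log2 units. The *Irs2* points of the groups are apart, with OVX at 6.33 to 6.34 and E2 at 6.66 to 6.89, and in the other 8 panels the groups overlap.

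*Irs1* (ENSMUSG00000055980, chromosome 1 from 82233101 to 82291416, minus strand), the substrate most used in muscle and in somatic growth, was read far less deeply. It had 3.06, 3.58 and 2.86 in OVX and 3.53, 3.01 and 3.43 log2 CPM in E2 libraries, with 204 to 407 rebuilt reads. The groups overlapped throughout, and the difference was 0.16 (SE 0.20, limma adjusted p = 0.904), with an interval from 0.82-fold to 1.51-fold that holds the *Irs2* estimate. The estimate was 0.0045 when OVX replicate 3 was left out and was 0.36 when OVX replicate 2 was. Of its 9144 exonic bases, 2822 lie in exons of ENSMUSG00000022591 on the opposite strand, where these reads cannot be told apart by position. That gene model had a mean of 3.27 log2 CPM, a difference of 0.24 (SE 0.17) and a limma adjusted p of 0.773.

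Whether *Irs2* and *Irs1* differed in their response was tested by their ratio within each library. *Irs2* minus *Irs1* was 3.28, 2.76 and 3.48 in OVX and 3.35, 3.66 and 3.25 in E2 libraries, in log2 CPM without correction for length. The groups overlapped, and the difference of 0.25 (SE 0.25) gave an exact permutation p of 0.5, two-sided (adjusted 0.75 over 3 ratios), where 3 against 3 libraries can give no p below 0.1. The difference of the ratio was 0.039 without OVX replicate 2, 0.13 without E2 replicate 2 and 0.40 without OVX replicate 3. The rise of *Irs2* was thus not shown to differ from the change of *Irs1*.

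The third listed substrate, *Irs4*, which is found mainly in hypothalamus and related areas, had 5.58, 5.29 and 5.71 in OVX and 5.46, 5.36 and 4.97 log2 CPM in E2 libraries. Its groups overlapped (difference -0.26, SE 0.13, limma adjusted p = 0.613). Per kilobase of longest transcript, *Irs2* made up 58.5% to 63.0% of the summed level of the 3 substrates in OVX libraries and 68.4% to 72.4% in E2 libraries. *Irs4* made up 30.6% to 37.9% and 22.3% to 27.9%, and *Irs1* between 3.63% and 6.44% in the 6 libraries. The shares of *Irs2* and *Irs4* therefore did not overlap between groups, as a description that includes the *Irs2* difference itself.

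Among all genes, those with the profile most like *Irs2* were sought by the root mean square difference between the deviations from each gene's own mean over the 6 libraries. The 5 closest were *Whrn* (0.05), *Grik1* (0.05), *Fam124a* (0.06), *Cyp2s1* (0.06) and *Cdc25b* (0.07), in log2 units, against a median of 0.25 over all genes. *Grik1* encodes a kainate receptor subunit, *Whrn* a scaffold protein and *Cdc25b* a cell cycle phosphatase. Their own differences between treatments were 0.37, 0.42, 0.42, 0.50 and 0.34 in the order given. Values near that of *Irs2* follow from how these genes were chosen. None of the 5 was past the threshold (limma adjusted p of 0.0608 to 0.683).

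The receptors *Insr* and *Igf1r* lay close together in level and gave no difference past the threshold. *Insr* (ENSMUSG00000005534, chromosome 8 from 3122061 to 3279617, minus strand), the insulin receptor, had 5.47, 5.79 and 5.73 in OVX and 5.76, 5.62 and 5.74 log2 CPM in E2 libraries. *Igf1r* (ENSMUSG00000005533, chromosome 7 from 67952827 to 68233668, plus strand), the IGF1 receptor, had 5.77, 5.90 and 5.65 in OVX and 5.84, 5.62 and 5.86 in E2 libraries. The E2 values of *Insr* lay inside the OVX range, and of those of *Igf1r* E2 replicate 2 was just below it. The difference was 0.05 for *Insr* (SE 0.09, limma adjusted p = 0.943) and 0.00 for *Igf1r* (SE 0.09, limma adjusted p = 0.9999), with intervals from 0.90-fold to 1.18-fold and from 0.88-fold to 1.14-fold.

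The balance of these receptors, *Igf1r* minus *Insr* within a library, was 0.30, 0.11 and -0.08 in OVX and 0.08, 0.00 and 0.12 in E2 libraries. It differed by -0.05 (SE 0.12), with an exact permutation p of 0.8, two-sided, and an adjusted value of 0.8. *Igf2r*, which binds IGF2 and clears it rather than signaling as a kinase, had a difference of -0.10 (SE 0.08, limma adjusted p = 0.790). Per kilobase of longest transcript, *Insr* made up 29.9% to 35.9% of the summed level of the 3 receptors, *Igf1r* 27.8% to 30.6% and *Igf2r* 35.0% to 39.9% over the 6 libraries.

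*Igf1* (ENSMUSG00000020053, chromosome 10 from 87858265 to 87937042, plus strand) encodes the ligand IGF1 and stood near the bottom of the table, at rank 13335 of 13886. Its log2 CPM was 0.97, 0.21 and 1.03 in OVX and 0.10, 0.29 and 0.52 in E2 libraries, on 32 to 57 rebuilt reads. OVX replicate 2 lay among the E2 libraries and the other OVX libraries above them. The difference was -0.43 (SE 0.40, limma adjusted p = 0.844), with an interval from 0.40-fold to 1.35-fold, so a change of a moderate size was not detectable at this depth. It was -0.29 without OVX replicate 3, -0.70 without OVX replicate 2 and, on the scale of log2(CPM + 1), -0.27.

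*Igf2*, the other listed ligand, was far above *Igf1* per kilobase, with 96.3% to 98.8% of the summed level of the pair. It had 5.21, 6.03 and 5.17 in OVX and 5.66, 4.78 and 5.12 log2 CPM in E2 libraries (difference -0.28, SE 0.22, limma adjusted p = 0.798). Of its 5723 exonic bases, 3596 are shared with Gm49394, a model on the same strand, so its level is uncertain. *Ins1* and *Ins2*, the insulin genes, were not listed. The authors kept protein-coding genes with a mean CPM above 1 in at least 1 group, so these genes did not pass that filter. Their exact level is not known.

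*Igfbp5* and *Igfbp2* lie next to each other on chromosome 1 with 5457 bases between the gene models, and they behaved differently between libraries. *Igfbp5* (ENSMUSG00000026185, from 72857932 to 72874884, minus strand), which is bound to matrix and to cells, had 6.80, 7.04 and 6.89 in OVX and 7.12, 6.95 and 6.81 log2 CPM in E2 libraries. Its whole range was 0.32, and the difference was 0.05 (SE 0.08, limma adjusted p = 0.933, interval from 0.91-fold to 1.17-fold). *Igfbp2* (ENSMUSG00000039323, from 72824503 to 72852474, plus strand), a main IGF carrier of the brain and its fluids, had 4.81, 5.45 and 4.68 in OVX and 4.93, 3.90 and 4.70 in E2 libraries. Its range of 1.55 was the widest of the 9 genes, set by a high OVX replicate 2 and a low E2 replicate 2.

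In OVX libraries the mean of *Igfbp2* was 4.98 ± 0.41 (SD, n = 3), and with E2 it was 4.51 ± 0.54 (SD, n = 3). The difference of -0.47 (SE 0.23, limma adjusted p = 0.604) was within the spread, with an interval from 0.51-fold to 1.02-fold. It was -0.17 without E2 replicate 2 and -0.24 without OVX replicate 2. Within a library *Igfbp2* minus *Igfbp5* was -1.99, -1.59 and -2.21 in OVX and -2.19, -3.05 and -2.11 in E2 libraries, a difference of -0.52 (SE 0.35) with an exact permutation p of 0.3, two-sided, and an adjusted value of 0.75. This difference was -0.22 without E2 replicate 2 and -0.69 without E2 replicate 3.

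Choroid plexus markers moved with *Igfbp2*. The list (*Ttr*, *Kl*, *Folr1*, *Aqp1*, *Clic6* and *Kcnj13*) had all 6 genes in the table, none at 0, and summed to a log2 CPM of 9.64, 10.07 and 9.43 in OVX and 9.99, 8.62 and 9.30 in E2 libraries. OVX replicate 2 was highest and E2 replicate 2 lowest for this sum, for *Igfbp2* and for *Igf2*. These extremes were not particular to choroid plexus. The summed microglial markers were also highest in OVX replicate 2 (6.91) and lowest in E2 replicate 2 (6.53), with another order between them. The order of the 6 libraries was the same for *Igf2* as for the choroid plexus sum. For *Igfbp2* it differed by the exchange of OVX replicate 3 and E2 replicate 3. The sum is mostly *Ttr*, at 9.53 in OVX replicate 1 where the sum was 9.64, and not every marker kept its order. *Clic6* did, while *Folr1* had OVX replicate 1 at 1.26, below OVX replicate 3 at 2.32. None of the 6 markers was past the threshold, and 0 of the 6 had a higher mean with E2. Their part in the values of *Igfbp2* and *Igf2* was not tested. *Irs2* did not follow this order, with its 3 E2 libraries above its 3 OVX libraries.

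**Figure D2:**
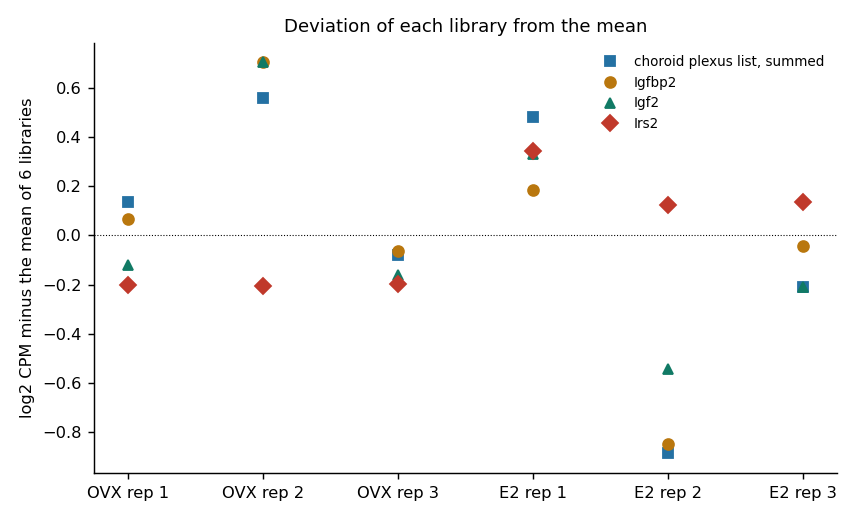
Deviation of each library from the mean of the 6 libraries, in log2 CPM, for the summed choroid plexus list (squares), *Igfbp2* (circles), *Igf2* (triangles) and *Irs2* (diamonds). The first 3 series are highest in OVX replicate 2 and lowest in E2 replicate 2, while *Irs2* is below its mean in each OVX library and above it in each E2 library.

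*Igfbp6* (ENSMUSG00000023046, chromosome 15 from 102144362 to 102149511, plus strand) encodes the binding protein that prefers IGF2 over IGF1. It had 4.65, 4.32 and 4.68 in OVX and 4.07, 4.26 and 4.49 log2 CPM in E2 libraries. E2 replicate 3 was above OVX replicate 2, so the groups overlapped, and the difference was -0.28 (SE 0.13, limma adjusted p = 0.600) with an interval from 0.68-fold to 1.01-fold. It ran from -0.18 without E2 replicate 1 to -0.39 without OVX replicate 2. *Igfbp4* (ENSMUSG00000017493, chromosome 11 from 99041244 to 99054392, plus strand), a binding protein cut by the pappalysin proteases, had 4.24, 4.37 and 4.26 in OVX and 4.46, 4.12 and 4.33 in E2 libraries. Its difference was 0.02 (SE 0.12, limma adjusted p = 0.989, interval from 0.85-fold to 1.20-fold). The 6 libraries of *Igfbp4* were interleaved between the groups.

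**Figure D3:**
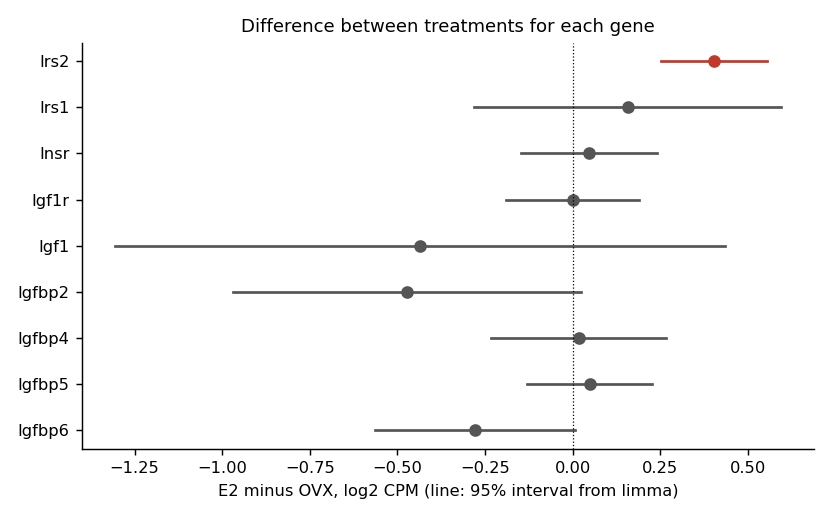
Difference between E2 and OVX (log2 CPM, points) for each of the 9 genes, with the 95% interval from limma (lines). The interval of *Irs2* (red) lies above 0, those of the other 8 genes include 0, and those of *Igf1* and *Igfbp2* are the widest.

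Levels were compared between genes as log2 CPM per kilobase of the longest GENCODE transcript. *Igfbp2* (4.36), *Igfbp5* (4.35), *Igfbp6* (4.26) and *Irs2* (3.88) came first, and neighbours in this order overlapped in their range over the 6 libraries. *Insr* (2.46), *Igfbp4* (2.36) and *Igf1r* (2.26) followed, apart from *Irs2* but overlapping one another. *Irs1* (0.05) and *Igf1* (-2.30) were each below all of these without overlap. Among the 13873 genes with a transcript length, *Igfbp2* ranked 3339 and *Igf1* 13794.

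The choice of length mattered for genes with several transcripts. With the mean transcript length, 5 of the 9 genes had the same place in the order, and *Igf1r* stood at 4.02, *Insr* at 3.98 and *Igfbp4* at 4.05, above *Irs2*. With merged exons it was 3 of the 9, and *Igfbp5* came first. *Irs1* and *Igf1* were in places 8 and 9 under each length. Among the 6 listed IGF binding protein genes, by longest transcript, *Igfbp5* made up 21.2% to 29.1% of the summed level per kilobase, *Igfbp2* 16.1% to 32.4%, *Igfbp6* 17.2% to 27.2% and *Igfbp4* 5.22% to 6.58%.

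**Figure D4:**
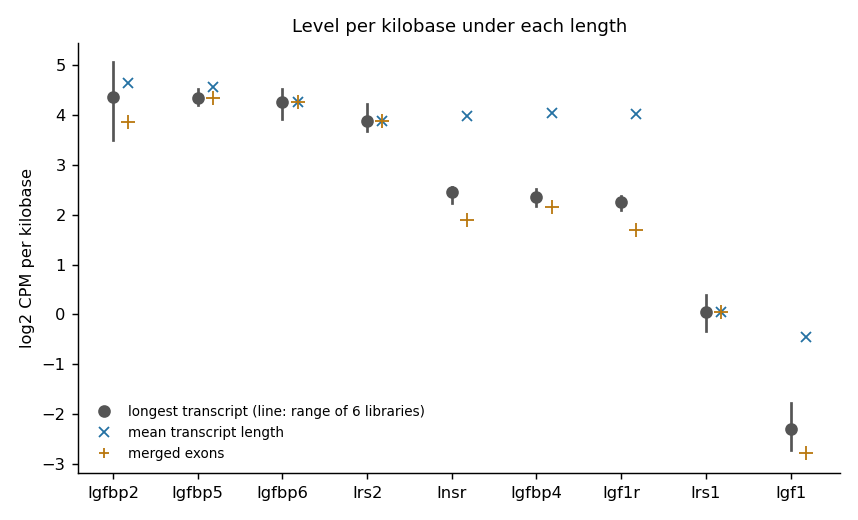
Mean level of each gene over the 6 libraries in log2 CPM per kilobase, by the longest transcript (circles, with the range of the libraries as a line), the mean transcript length (crosses) and merged exons (plus signs). *Irs1* and *Igf1* are lowest under each length, and *Igf1*, *Igf1r*, *Igfbp4* and *Insr* are raised most by the mean transcript length.

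The wider pathway was followed in a list of 87 genes by role, which includes the 9 genes, and 79 of them were in the table. *Irs2* was the 1 gene higher with E2 past the threshold (0.230% of all genes were), and 0 were lower (0.0576% of all genes were). At an unadjusted p under 0.05 in limma there were 5 of the 79 genes, against 8.56% of all genes. The median difference of the list was -0.01, beside 0.00 for all genes, and the median absolute difference was 0.07, beside 0.09. Groups did not overlap for 1 gene in the higher direction (6.85% of all genes) and for 9 in the lower direction (6.82% of all genes).

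Downstream of the substrates, the genes with the smallest p in their role did not pass the threshold. *Pik3r1*, the main regulatory subunit of PI3K, had 6.53, 6.54 and 6.55 in OVX and 6.46, 6.34 and 6.36 log2 CPM in E2 libraries (difference -0.16, SE 0.06, limma adjusted p = 0.489). *Foxo6*, a FoxO factor of forebrain neurons, had 4.32, 4.19 and 4.25 and then 3.81, 4.07 and 3.83 (difference -0.35, SE 0.12, limma adjusted p = 0.392). In both of these genes each E2 library lay below each OVX library, and the groups did not overlap. Both were named for a small p, and that choice favours groups that do not overlap. The summed forebrain excitatory markers were also lower in each E2 library than in each OVX library, as given above, and their part in these values was not tested.

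*Ptprf*, a receptor phosphatase that acts on the insulin receptor, and *Shc3*, a neuronal adaptor toward RAS, were named by the same rule. Their groups likewise did not overlap. The difference was -0.18 for *Ptprf* (SE 0.06, limma adjusted p = 0.365) and -0.29 for *Shc3* (SE 0.14, limma adjusted p = 0.599). In the RAS and ERK branch the smallest p belonged to the kinase gene *Araf* (difference 0.11, SE 0.06, limma adjusted p = 0.692), and among the binding proteins and their proteases outside the 9 genes it belonged to *Stc1*, a pappalysin inhibitor (difference 0.34, SE 0.21, limma adjusted p = 0.718). The difference farthest from 0 was that of the adaptor gene *Dok1*, which was near the bottom of the table and had overlapping groups (-0.73, SE 0.57, limma adjusted p = 0.798). By role, the table held 2 of 4 ligands, 3 of 4 receptors and 9 of 13 genes of the role of binding proteins and their proteases. It held 13 of 13 substrates and adaptors, 9 of 9 PI3K genes and 17 of 17 AKT and mTOR genes. Of the remaining roles it held 4 of 4 FoxO genes, 12 of 12 RAS and ERK genes and 10 of 11 inhibitors.

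**Figure D5:**
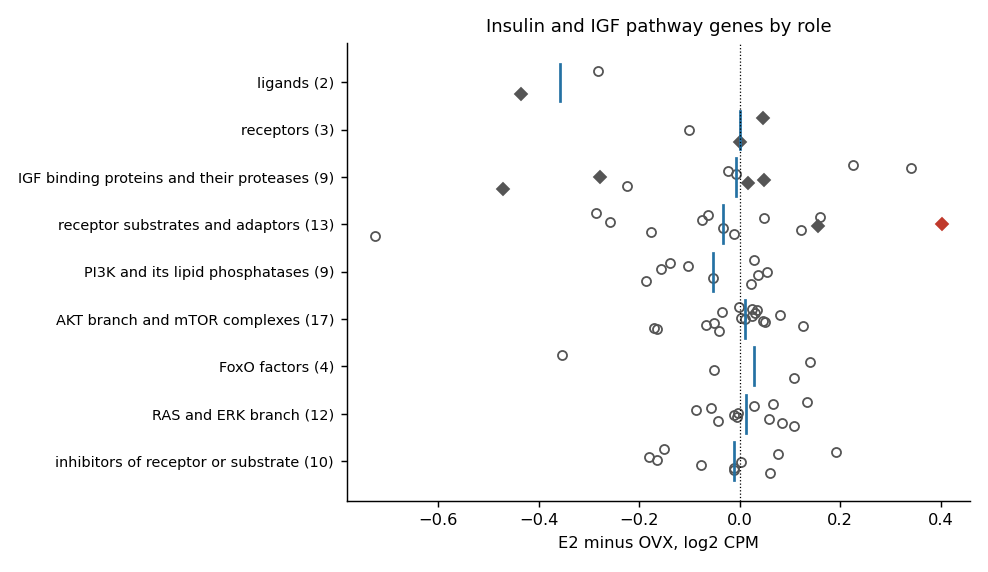
Difference between E2 and OVX (log2 CPM) of the 79 listed pathway genes by role, with the number listed in brackets. Diamonds are the 9 genes, circles the other pathway genes, blue lines the median of each role, and red marks *Irs2*, the 1 gene past the threshold, at 0.40.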

How the data were processed

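The 6 libraries were poly(A)-selected and unstranded. Per the labels' processing notes and the study's methods, the authors checked reads with FastQC 0.11.8, trimmed them with Trimmomatic 0.38, aligned them with STAR 2.6.0a, quantified them with RSEM on GRCm38 with Ensembl models, kept protein-coding genes with a mean CPM above 1 in at least 1 group, and applied TMM scaling and voom. The deposited values are log2 CPM. A second table of the authors, with their fold changes, p-values and group means, was not used.

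The log2 CPM of all 13886 genes were fitted in limma 3.58.1 (R 4.3.3), with treatment as the only term and a mean-variance trend. Two-sided p-values were adjusted by Benjamini and Hochberg's method across the whole table, with a threshold of 0.05 (prior degrees of freedom 9.55, median SE 0.11). Because counts were not among the files, the trend took the place of the voom weights of the study, which were an alternative. Reads were rebuilt on the assumption that a library's minimum is a gene without reads, to which voom adds 0.5, and are estimates without an interval. Intervals are limma's 95% intervals. Ratios between genes were tested by exact permutation over libraries with scipy 1.17.1. Gene models and lengths came from GENCODE release M21, on the authors' assembly but another release; 13873 genes had a position. Upstream sequences came from RefSeq (GRCm38.p6). The fit was tested on simulated data.

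The members and lists were chosen with earlier results of these data known. The genes named are the 9 members, pathway genes past the threshold, the gene with the smallest p outside the members in each role, the 5 genes most like *Irs2*, and *Kiss1*; 1 gene that this rule names is not reported here. *Irs4*, *Dok1*, *Igfbp3*, *Igfbp7* and ENSMUSG00000022591 were added after their values were seen. Marker lists covered neurons, astrocytes, oligodendrocytes, microglia, vessels, meninges, choroid plexus, forebrain excitatory neurons and red cells. Alternatives were other weights, scalings, filters and pseudocounts, robust empirical Bayes, a replicate block and each library left out.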

Additional observations from a re-analysis of the deposited data

How the results depend on the processing

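Without the trend or weights, 0 genes of the table and 0 pathway genes passed the threshold (0 higher, 0 lower), with 1017 and 4 at an unadjusted p under 0.05 in limma. The difference of *Irs2* was 0.40 in that fit (adjusted p = 0.466), and it was past the threshold in 11 of its 17 alternatives; the cause was not tested. Replicate numbers were not taken to pair libraries. Deviations of same-numbered libraries correlated at -0.02, -0.12 and -0.08 across genes, and no library correlated best with its own number. With a replicate block, 35 genes passed (5 lower), 0 pathway genes passed, 4 were at an unadjusted p under 0.05, and *Irs2* had a difference of 0.40 (adjusted p = 0.0713). Quality weights per library left 4 genes lower with E2. With 1 library left out, the counts were 20 to 66 genes (19 to 43 higher, 1 to 30 lower) and 0 to 1 pathway genes, all higher. Over the same fits the difference was 0.33 to 0.44 for *Irs2*, -0.051 to 0.11 for *Insr*, -0.062 to 0.076 for *Igf1r*, -0.063 to 0.11 for *Igfbp4*, -0.031 to 0.12 for *Igfbp5* and, for *Igf1r* minus *Insr*, -0.14 to 0.049, so that each but *Irs2* changed sign. *Igf1r* was at -0.0078 with voom weights and -0.0089 with median centring, and *Igfbp4* at -0.010 with quantile normalization. The order per kilobase held in 5 places with the mean transcript length, 3 with merged exons and 6 to 9 with 1 library left out. The 8 genes other than *Irs2* passed the threshold under none of the alternatives run. *Igf1* has no value under a mean log2 CPM of at least 1. With 3 libraries a group, the intervals above limit what can be seen, most for *Igf1*, *Igfbp2* and *Irs1*.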

Other observations

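A pair of IGF binding protein genes outside the 9 genes were also listed, and neither was past the threshold in limma. *Igfbp7*, known from vessels, stood at 3.69, 4.49 and 3.72 log2 CPM in OVX and at 4.04, 3.90 and 3.93 in E2 libraries (difference -0.01, SE 0.18, limma adjusted p = 0.997). OVX replicate 2 was its highest library, as it was for the summed endothelial and mural markers, at 8.19 against 7.25 to 7.85 in the other 5 libraries. *Igfbp3*, a main IGF carrier of blood, had 4.06, 3.84 and 3.98 in OVX and 3.98, 3.41 and 3.82 in E2 libraries (difference -0.22, SE 0.15, limma adjusted p = 0.758), with E2 replicate 2 the lowest. The listed fibroblast and meningeal markers, 5 of 6, summed to 5.01 to 5.73 in OVX and 5.42 to 5.90 in E2 libraries, and 1 of them, the collagen gene *Col1a1*, was past the threshold (difference 1.18, SE 0.22, limma adjusted p = 0.0469). The part of these cells in the values was not tested.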
